A study of Homo sapiens with 35 samples.

Results

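The ETS1 ChIP-seq data of U-87 MG glioblastoma cells were examined here for what 48 h of TWEAK did to the strength and the location of ETS1 peaks. All peaks of the 4 ETS1 lists of control cells were taken, which gave 13153 of the 273996 peaks in the 20 peak lists of the series. The control cells carried a lentiCRISPRv2 control vector and no *ETS1* or *NFKB2* guide. All cells were serum-starved, and the treated cells received 10 ng/ml of TWEAK for 48 h, while the untreated cells received none. Each condition had 2 libraries, and 1 input was sequenced for the control cells. That input came from TWEAK-treated cells per the labels, and which input served each library is not given in the sources used here. No ETS1 library of *ETS1* knockdown (KD) cells was used here.

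ETS1 is a winged-helix transcription factor of the ETS family, whose members bind DNA with a GGAA core and are best known at promoters and enhancers of growth, migration and matrix-remodelling genes. TWEAK is a TNF family ligand that acts through the Fn14 receptor and drives non-canonical NF-κB signalling, where p100, encoded by *NFKB2*, is cut to p52. In a ChIP-seq experiment, DNA recovered with an antibody is sequenced, and a peak is a stretch with more reads than the input. The strength of a peak is given below as its fold enrichment over input at the summit, the base with the highest signal.

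The sequences under 9 peaks are shown because the results below return to them. How alike the sequences under the strongest peaks are was not tested. Each is the 201-bp window on the plus strand of hg38 around the summit, and capitals mark the 8-letter ETS consensus CCGGAAGT, read on either strand, or its 6-letter core GGAAGT. The first 5 belong to the strongest sites, the next is the site with the smallest p for a rise with TWEAK, the next 2 had peaks only in the TWEAK lists, and the last had peaks only in the untreated lists.
RNF187 promoter, chr1:228487101-228487301: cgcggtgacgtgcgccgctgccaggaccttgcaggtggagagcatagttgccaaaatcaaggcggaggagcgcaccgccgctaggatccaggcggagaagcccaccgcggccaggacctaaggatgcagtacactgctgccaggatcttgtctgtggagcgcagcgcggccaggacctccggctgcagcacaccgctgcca
RPL32 promoter, chr3:12841577-12841777: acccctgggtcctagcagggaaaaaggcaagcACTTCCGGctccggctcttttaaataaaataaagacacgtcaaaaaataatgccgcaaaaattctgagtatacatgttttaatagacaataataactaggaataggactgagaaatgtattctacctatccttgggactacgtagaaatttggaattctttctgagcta
RABEP1 promoter, chr17:5282037-5282237: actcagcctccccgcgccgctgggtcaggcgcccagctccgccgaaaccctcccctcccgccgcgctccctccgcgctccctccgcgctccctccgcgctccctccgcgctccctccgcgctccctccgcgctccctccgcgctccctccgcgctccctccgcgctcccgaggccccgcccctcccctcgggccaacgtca
HIF1A-AS3 intron, chr14:61755306-61755506: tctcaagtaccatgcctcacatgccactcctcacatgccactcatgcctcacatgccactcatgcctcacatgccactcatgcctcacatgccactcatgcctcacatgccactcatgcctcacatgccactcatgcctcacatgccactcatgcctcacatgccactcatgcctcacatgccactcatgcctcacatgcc
intergenic site near ZNF778, chr16:89241073-89241273: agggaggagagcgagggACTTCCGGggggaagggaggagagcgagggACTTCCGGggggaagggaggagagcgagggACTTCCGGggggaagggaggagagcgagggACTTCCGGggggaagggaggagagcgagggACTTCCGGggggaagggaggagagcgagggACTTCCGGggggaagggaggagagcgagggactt
EIF5 promoter, chr14:103333875-103334075: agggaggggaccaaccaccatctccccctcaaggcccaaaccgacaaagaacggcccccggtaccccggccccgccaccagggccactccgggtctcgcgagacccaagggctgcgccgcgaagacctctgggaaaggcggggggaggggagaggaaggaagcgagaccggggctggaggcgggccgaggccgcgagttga
MCM3AP promoter, chr21:46286132-46286332: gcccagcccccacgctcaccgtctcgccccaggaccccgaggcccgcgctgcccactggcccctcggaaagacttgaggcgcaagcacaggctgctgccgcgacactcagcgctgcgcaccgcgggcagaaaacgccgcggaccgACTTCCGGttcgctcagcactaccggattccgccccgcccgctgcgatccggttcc
NR1H2 promoter, chr19:50376254-50376454: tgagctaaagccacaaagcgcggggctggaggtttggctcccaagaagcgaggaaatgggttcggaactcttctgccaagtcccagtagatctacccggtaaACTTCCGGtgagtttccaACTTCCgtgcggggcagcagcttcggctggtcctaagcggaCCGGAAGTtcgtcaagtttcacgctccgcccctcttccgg
CDK5R1 promoter, chr17:32487489-32487689: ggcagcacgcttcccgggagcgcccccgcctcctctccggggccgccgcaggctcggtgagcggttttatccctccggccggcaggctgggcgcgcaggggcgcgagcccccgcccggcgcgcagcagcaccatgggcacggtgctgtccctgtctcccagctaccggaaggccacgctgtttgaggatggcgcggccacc
The *RNF187* window, under the strongest peak of every library, held no ETS core. It held the string ctgccaggacct, which the windows of 2 other strong sites, *CAMKMT* and *TAF6* (not shown), held on the other strand. How often this string occurs elsewhere was not tested. The *RPL32* window held 1 consensus match, the *NR1H2* window held 2, and the window near *ZNF778* held 6 of them in a 30-bp repeat. The *HIF1A-AS3* window was an 18-bp repeat with no match, in which 88.5% of the bases equalled the base 1 period further on. The middle of the *RABEP1* window repeats the unit cgcgctccctc. Over the whole window with its flanks, the best match was 73.2% at a spacing of 22 bp, under the 75% set here for counting a tandem repeat.

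The size of the lists set the first difference between libraries. The untreated libraries held 4372 and 2066 peaks, and the TWEAK libraries held 3570 and 3145 peaks, so the untreated replicates differed more from each other than the TWEAK replicates did. The files hold no read counts, so the depth behind these numbers is unknown. In RNA-seq of the same line, the mesenchymal marker *VIM* stood at 9220, 9390 and 9040 CPM in the untreated libraries. With TWEAK it stood higher, at 16300, 15000 and 16000 CPM. In the libraries of both conditions the astrocyte marker *GFAP* stayed at or below 0.28 CPM and the leukocyte marker *PTPRC* at or below 0.095 CPM.

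The median strength of the peaks differed little between conditions. The median fold enrichment was 4.47 and 4.68 in the untreated libraries and 4.81 and 4.90 in the TWEAK libraries. Both TWEAK medians were above both untreated medians, with a ratio of the means of 1.06. An exact permutation test of 2 libraries against 2, two-sided, gave p = 0.333, which is the smallest p this design allows and applies to every comparison of whole libraries below. By −log10 of the q-value the ratio turned to 0.923 (exact permutation test, p = 0.667), with medians of 6.15 and 5.58 against 5.05 and 5.78. The upper end did not follow the medians. The 90th percentile of fold enrichment was 8.07 and 7.56 in the untreated libraries and 7.83 and 7.97 in the TWEAK libraries. A fold enrichment of at least 20 was reached by 13 and 5 untreated peaks and by 11 and 13 TWEAK peaks.

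**Figure D1:**
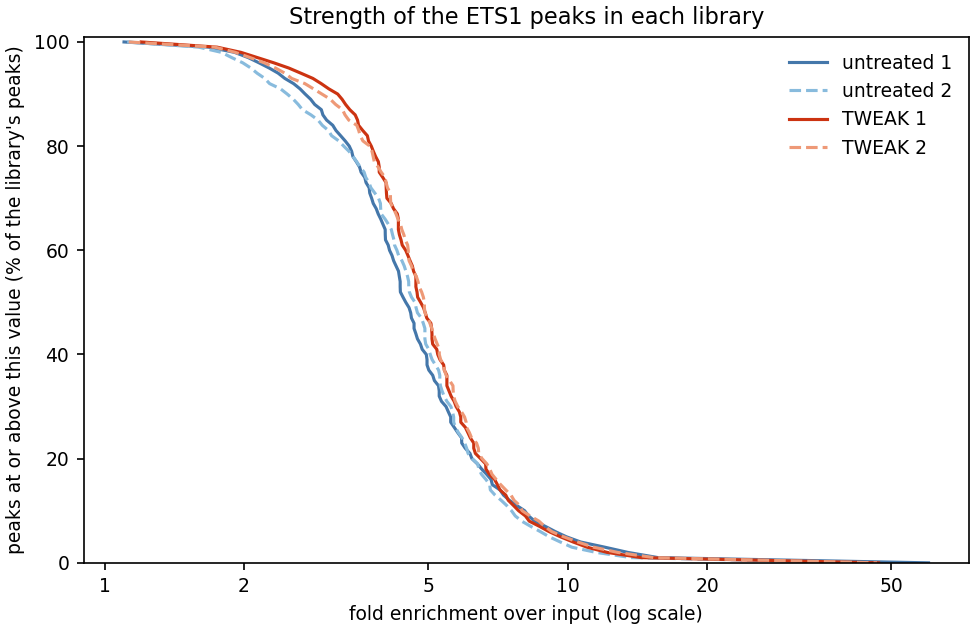
Share of each library's ETS1 peaks (y axis, percent) at or above a given fold enrichment over input (x axis, log scale), with 1 line for each of the 2 untreated and 2 TWEAK libraries. The TWEAK lines lie to the right in the middle of the range, with medians of 4.81 and 4.90 against 4.47 and 4.68, and the 4 lines run together above a fold enrichment of about 10.

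Overlapping peaks of the 4 lists, sharing at least 1 bp, were merged into 6438 sites. Of these, 3265 (50.7%) rested on a single list and 1187 (18.4%) had a peak in all 4. Sites of 1 list were weaker, with a median fold enrichment of 4.10 against 6.07 for sites of all 4 lists, and narrower, at 262 bp against 518 bp. The first untreated library alone accounted for 1511 sites. Peaks in both TWEAK lists and in no untreated list made up 222 sites, and peaks in both untreated lists and in no TWEAK list made up 150 sites. Sites of only 1 untreated and 1 TWEAK list numbered 419 and 295 with the first untreated library, and 47 and 47 with the second.

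The strongest sites were largely shared by both conditions. Ranked by the worse of the 2 replicate ranks, 68 of the 100 strongest sites of untreated cells were among the 100 strongest of TWEAK-treated cells. The 2 untreated libraries shared 67 of their 100 strongest sites, the 2 TWEAK libraries shared 61, and pairs of libraries from different conditions shared 57 to 66. Of the 4 pairs across conditions, those at 57 and 60 lay below both pairs of replicates. Ranking by q-value in place of fold enrichment kept 6 of the 10 strongest untreated sites and 4 of the 10 strongest TWEAK sites.

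The 10 strongest sites of each condition made up 14 distinct sites, of which 6 were common to both lists of 10 and 13 had a peak in all 4 libraries. The site at the top in every library lay 181 bp upstream of *RNF187*, which encodes an E3 ubiquitin ligase, at chr1:228486681-228487461. Its fold enrichment was 60.1 and 45.1 in untreated cells and 46.9 and 46.5 in TWEAK-treated cells, so the TWEAK values fell between the untreated ones. It lies in the same megabase as the 5S rRNA gene cluster of chromosome 1, where the lists held 25, 15, 23 and 23 peaks.

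*RPL32*, a protein of the large ribosomal subunit, came second in both conditions, with a summit 95 bp upstream of its start site at chr3:12841374-12841959. Its fold enrichment was 28.8 and 23.7 without TWEAK and 35.0 and 31.9 with it, and the conditions did not overlap. *CAMKMT*, a methyltransferase of calmodulin, followed with 28.6 and 26.9 against 32.0 and 41.8. Both TWEAK values of *CAMKMT* were again above both untreated values. At *ABCA7*, a lipid transporter, the summit lay in an exon 427 bp inside the gene, and 28.3 and 24.2 faced 32.4 and 25.3. These values overlapped between conditions.

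At 4 of the 14 strongest sites no RNA Pol II list of control cells had a peak, while at 6 sites all 4 RNA Pol II lists had one. The 4 sites were those at *ABCA7*, at *TACR1*, the substance P receptor, at *EGR2*, a zinc-finger factor of the early growth response family, and at *KMT2A*, a histone H3 lysine 4 methyltransferase. *TACR1* values were 33.1 and 19.7 against 22.6 and 29.9, with the summit 1303 bp upstream of the gene. At *EGR2* the untreated values of 21.2 and 17.5 overlapped the TWEAK values of 18.3 and 13.6. *KMT2A* reached 28.6 in the first untreated library, 12.5 in the second and 27.0 and 26.8 with TWEAK, so its 2 untreated replicates were further apart than its conditions.

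The other sites of the untreated list lay at regulators and at a matrix gene. *MEIS1*, a homeobox factor, had 26.0 and 17.9 against 21.9 and 18.2. *TAF6*, a subunit of the TFIID complex, had 25.9 and 16.9 against 20.1 and 19.2, and *CDCA7*, a cell-division-associated nuclear protein, had 26.0 and 16.5 against 24.4 and 23.3. At all 3 the TWEAK values sat inside the untreated range. *FBN1*, which encodes the matrix protein fibrillin-1, was the only 1 of the 14 sites with both TWEAK values, 14.0 and 14.0, below both untreated values, 20.6 and 16.3.

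The remaining sites of the TWEAK list were 3 whose windows are shown above. In the intron of the antisense RNA *HIF1A-AS3*, 7014 bp upstream of *SNAPC1*, a subunit of the snRNA activating complex, the values were 18.3 in the first untreated library and 19.98 and 23.6 with TWEAK, and the second untreated library had no peak. *RABEP1*, which encodes the endosomal protein rabaptin-5, had 18.3 and 20.7 against 22.96 and 20.7. The intergenic site at chr16:89240902-89241429, nearest to the zinc-finger gene *ZNF778*, had 13.4 and 8.88 against 19.98 and 20.5, and the conditions did not overlap there. All 4 RNA Pol II lists had a peak at each of these 3 sites, and how repeats shape the mapped signal was not tested.

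**Figure D2:**
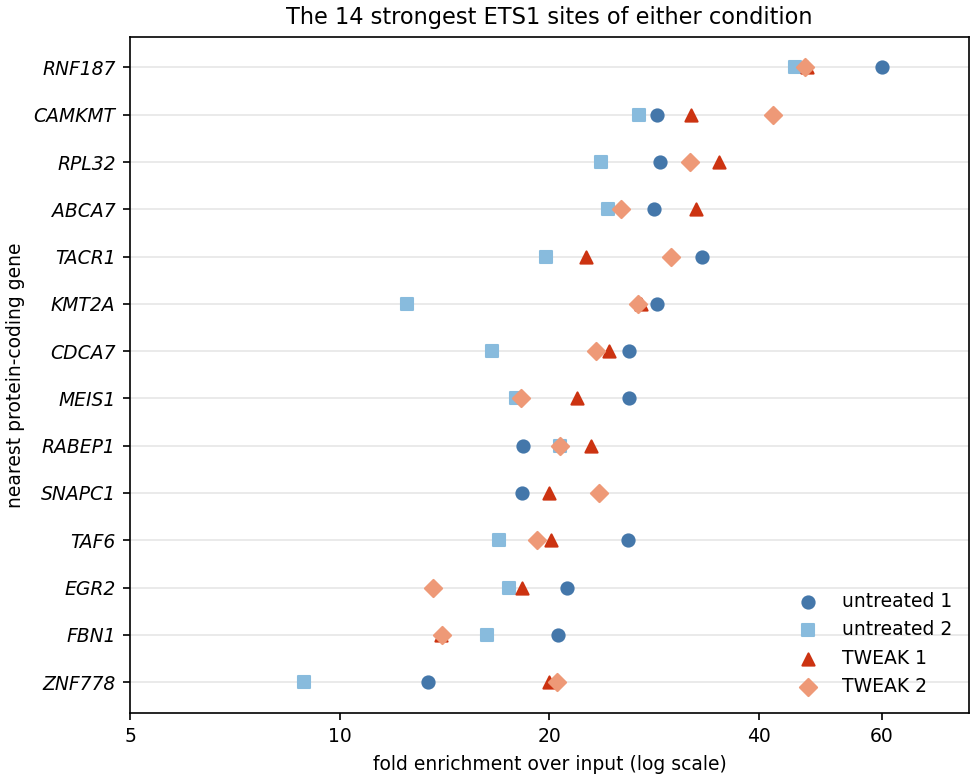
Fold enrichment over input (x axis, log scale) of the 14 sites that make up the 10 strongest of each condition, named by the nearest protein-coding gene (y axis), with 1 point for each of the 4 libraries. *RNF187* stands highest at 45.1 to 60.1, the second untreated library is lowest at several sites such as *KMT2A* at 12.5, and it has no point at *SNAPC1*.

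None of the 13 nearest coding genes of these sites that were tested in RNA-seq passed the test for a change with TWEAK. Across all 16879 genes tested with edgeR's quasi-likelihood test at an adjusted p under 0.05, 1.55% were raised and 1.53% were lowered. DESeq2 also called 0 of the 13, and 0 had an unadjusted p under 0.05. *RPL32* stood at 669, 626 and 531 CPM in untreated cells and 798, 621 and 546 CPM in TWEAK-treated cells, a log2 difference of 0.11 (SE 0.16, n = 3 against 3, edgeR adjusted p = 0.85). *KMT2A*, with 30.6, 32.1 and 43.3 CPM against 29.7, 45.3 and 51.8 CPM, had a log2 difference of 0.26 (SE 0.26, edgeR adjusted p = 0.741). *TACR1* was too low in RNA-seq to be tested.

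At the 1187 sites with a peak in all 4 lists, strength was compared by limma on the log2 fold enrichment, with each library centred on its median. No site passed an adjusted p of 0.05 (0% called), and the smallest adjusted p was 0.91. At an unadjusted p under 0.05 there were 59 sites, of which 34 were higher with TWEAK. The median absolute log2 difference between the means of the conditions was 0.18, while that between single replicates was 0.26 in untreated and 0.23 in TWEAK-treated cells. Each mean averages 2 libraries, which by itself makes the difference of means smaller than that of single libraries. No site changed by more than 1 log2 unit in either direction. Without centring, both TWEAK values were above both untreated values at 256 sites (21.6%) and below them at 139 sites (11.7%), against the 0% that were called. With 2 libraries against 2, freely exchanged labels would give such a separation, in either direction, at a share of 0.333 of sites. The same holds for the single sites above where the conditions did not overlap.

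**Figure D3:**
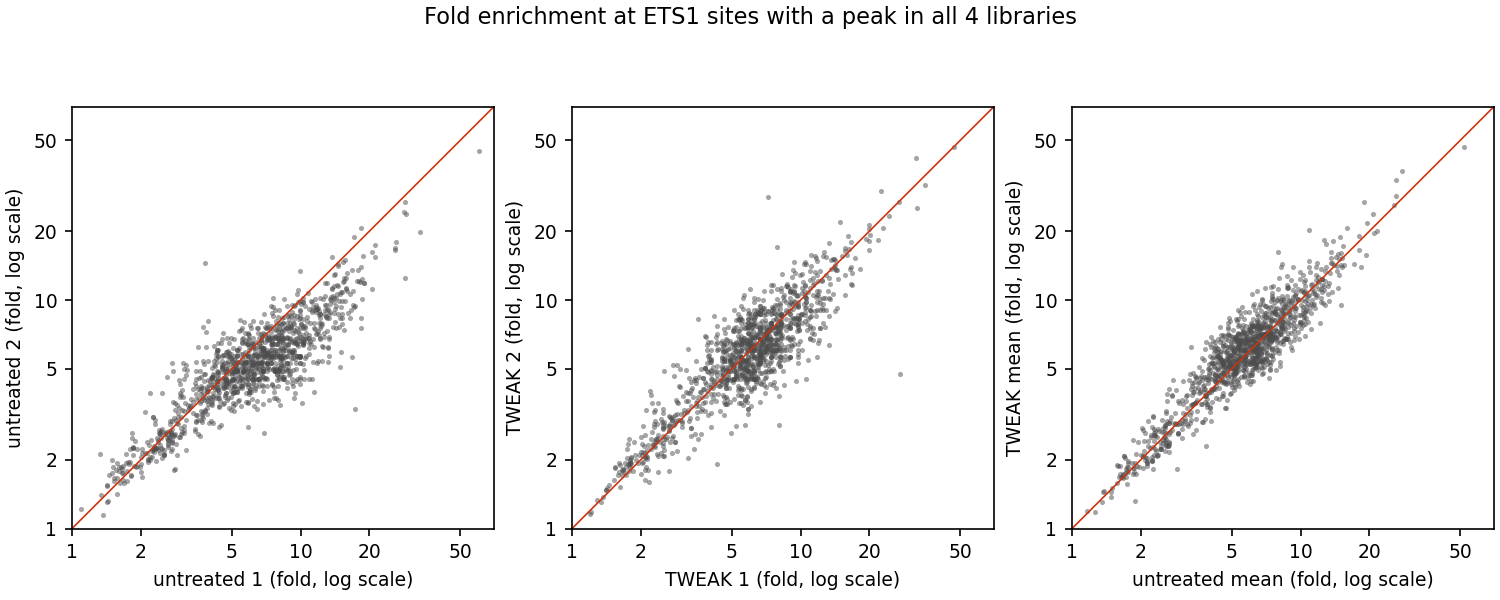
Fold enrichment over input (both axes, log scale) of the 1187 sites with a peak in all 4 libraries, for the untreated replicates (left), the TWEAK replicates (middle) and the geometric means of both conditions (right), with the line of equality in red. After centring, the median absolute log2 difference is 0.26 and 0.23 between single replicates and 0.18 between the means of the conditions, and much of the left cloud lies under the line. Each mean averages 2 libraries, which by itself makes that difference smaller.

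Libraries of different conditions resembled each other as much as replicates did. Over the sites a pair of libraries shared, the SD of the log2 ratio was 0.40 for the untreated replicates and 0.37 for the TWEAK replicates, and 0.37 to 0.40 for pairs across conditions. Pearson's r of log2 fold enrichment, a description across sites that are not replicates, was 0.877 and 0.844 for replicates and 0.834 to 0.871 across conditions. The second untreated library was lower than the first at shared sites, with a median log2 ratio of -0.18.

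The named sites with the smallest p for a rise or a fall did not pass the adjusted test, and their values are given as such. At the promoter of *EIF5*, a translation initiation factor, the 2 untreated values of 8.18 and 7.83 lay well below the TWEAK values of 15.6 and 16.9. This was a log2 difference of 0.96 (SE 0.23, unadjusted p = 0.00138, limma adjusted p = 0.91). *EIF5* RNA was 434, 412 and 328 CPM against 488, 431 and 437 CPM, a log2 difference of 0.21 (SE 0.20, edgeR adjusted p = 0.736). *HOXD8*, a homeobox gene, had 6.34 and 5.92 against 10.3 and 11.0 in its promoter. *STK39*, a kinase that acts on ion cotransporters, had 5.39 and 4.38 against 7.60 and 9.17 in an intron. The remaining 2 of the 5 were the repeat near *ZNF778* and an intergenic site far from any coding gene at chr12:37245854-37246588, with 3.51 and 3.15 against 5.86 and 6.62.

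Among the falls, *CHST11*, a chondroitin sulfotransferase, had 19.0 and 11.8 in untreated cells and 9.54 and 9.43 in TWEAK-treated cells, at a summit in an exon 355 bp inside the gene. This was a log2 difference of -0.73 (SE 0.24, limma adjusted p = 0.91). *CHST11* RNA was raised, from 40.3, 41.2 and 42.6 CPM to 60.7, 62.1 and 77.3 CPM, a log2 change of 0.69 (SE 0.13, edgeR adjusted p = 0.0137). *SFXN1*, a mitochondrial serine carrier, had 9.76 and 6.28 against 4.55 and 5.42, and *LYSMD2* had 8.35 and 7.96 against 4.73 and 6.05, both without passing the adjusted test. The last 2 of the 5 lay outside genes. One was on chromosome 1 at chr1:122725293-122725662, with 4.09 and 3.66 against 2.53 and 2.07, and the other on the unplaced contig Un_GL000224v1, with 3.02 and 2.75 against 1.85 and 1.79.

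A few sites were high in single libraries. At *EEF1A1*, a translation elongation factor, the fold enrichment was 9.08 and 7.60 in untreated cells and 7.24 in the first TWEAK library, but 28.3 in the second. In the β-globin region next to *HBB* the values were 3.80 and 14.6 against 27.3 and 4.74, so 1 library of each condition was high. At the promoter of *PGK1*, a glycolytic enzyme, the values were 17.2 and 3.34 against 7.85 and 17.0. These sites showed no difference between conditions beyond their replicates. Whether the high values of single libraries are ETS1 signal was not tested.

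Peaks of TWEAK-treated cells lay nearer to start sites. The median distance from a summit to the nearest annotated start site was 373 and 416.5 bp in untreated cells and 279 and 290 bp in TWEAK-treated cells, a ratio of the means of 0.721 (exact permutation test, p = 0.333). The conditions did not overlap. Summits within 1 kb of a start site made up 66.6% and 63.9% of the untreated peaks and 71.6% and 70.4% of the TWEAK peaks. Intergenic peaks took 22.3% and 27.1% without TWEAK and 17.9% and 19.4% with it. Strength and location were tied within each list, as 88.2% of the 415 strongest but 13.0% of the 415 weakest peaks of the first untreated library lay within 1 kb of a start site.

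The 2 kinds of condition-restricted sites lay in different places. Both TWEAK lists and no untreated list had a peak at 222 sites, and of the 220 on assembled chromosomes 57.3% were in promoters and 19.1% were intergenic. Both untreated lists and no TWEAK list had one at 150 sites, and of the 131 on assembled chromosomes 21.4% were in promoters and 53.4% were intergenic. The 1104 sites of all 4 lists on assembled chromosomes stood at 43.2% and 19.9%. Sites of only 1 untreated and 1 TWEAK list were in promoters at 31.8% to 47.9%, depending on the pair of libraries. Over all sites of each kind, an RNA Pol II peak of both TWEAK lists covered 54.1% of the TWEAK-restricted sites, 35.8% of the sites of all 4 lists and 17.3% of the untreated-restricted sites. In the untreated RNA Pol II lists the same sites gave 43.7%, 25.4% and 11.3%, so the TWEAK-restricted sites were already the richest in RNA Pol II without TWEAK. A p52 peak of both TWEAK lists covered 3.15% of the TWEAK-restricted sites, 13.6% of the sites of all 4 lists and 4.0% of the untreated-restricted sites. A p52 peak of any untreated list covered 4.96%, 24.6% and 26.7% of them. Both kinds were weaker than the sites of all 4 lists, with a median fold enrichment of 4.70 for the TWEAK-restricted and 3.87 for the untreated-restricted sites.

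The strongest TWEAK-restricted sites were mostly at start sites. *POLE*, the catalytic subunit of DNA polymerase ε, had 7.83 and 7.92 in the TWEAK libraries, with the summit 30 bp upstream of its start site. *RPS15*, a protein of the small ribosomal subunit, had 7.78 and 10.2, and *N6AMT1*, a methyltransferase, had 7.24 and 7.96. *PURA*, a nucleic-acid-binding protein, had 7.15 and 8.47, *DRG2*, a GTPase, had 7.05 and 6.79, and *MRPL40*, of the mitochondrial ribosome, had 9.01 and 6.79. The promoter of *MRPL40* held a separate peak in the first untreated library, with 5.59. *MCM3AP*, an mRNA export factor whose window is shown above, had 7.04 and 7.71. *NR1H2*, the oxysterol receptor LXRβ, had 8.62 and 5.28 at the window with 2 consensus matches. The strongest untreated-restricted sites were at *P3H1*, a collagen prolyl hydroxylase, with 8.07 and 6.21, at *SEPTIN6*, a cytoskeletal GTPase, with 7.45 and 5.67, in an intron of ENSG00000290928, with 6.83 and 7.52, and at *CDK5R1*, the activator of the neuronal kinase CDK5, with 6.21 and 5.67.

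The ETS consensus was rare at the sites and unevenly spread. It occurred within 100 bp of the summit at 2.12% and 2.34% of the sites of the untreated lists and at 4.24% and 3.24% of those of the TWEAK lists. The conditions did not overlap (exact permutation test not below p = 0.333). Each merged site has 1 summit, from the library where it ranked best, so a shared site has the same window in every list. Among 19061 windows of the same length at start sites of protein-coding genes, 5.13% held it. It was found at 23 of 1104 sites of all 4 lists (2.08%), 17 of 220 TWEAK-restricted sites (7.73%), and 1 of 131 untreated-restricted sites (0.763%). The 6-letter core, which is part of the consensus, was found at 145 (13.1%), 44 (20%) and 21 (16%) of these sites and at 17.7% of the start sites. Other motifs were searched on both strands. GGGCGG, the box of SP and KLF factors, was at 38.5%, 42.7% and 23.7% against 54.6%, and CCAAT, the box of NF-Y, at 10.1%, 17.3% and 9.92% against 25.4%. The κB motif was at 8.24%, 5.45% and 10.7% against 8.09%, and TGANTCA, the AP-1 motif, at 1.45%, 4.09% and 2.29% against 3.04%. A match is a string of letters and was not tested as a site of binding.

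Sites with and without the consensus lay in different places and were similar in height. Of the 23 sites of all 4 lists with a consensus match, 78.3% were in promoters and 78.3% had an RNA Pol II peak in both TWEAK lists, against 42.5% and 35.6% of the 1081 sites without. The sites with a match were narrower, at a median of 319 bp against 519 bp. Their median fold enrichment was 6.22 and 5.29 without TWEAK and 6.52 and 6.47 with it, beside 6.71 and 5.35, and 6.27 and 6.15 at the sites without a match.

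GC content differed with the rank of the site. The median GC content of the summit windows was 69.7% at sites of all 4 lists, 67.2% at TWEAK-restricted and 53.7% at untreated-restricted sites, against 66.7% at start sites. In bins of 100 sites of all 4 lists ranked by strength, GC content was 70.4% in the first bin and 71.6% at ranks 701 to 800, and dropped to 54.0% at ranks 901 to 1000 and 39.3% at ranks 1001 to 1100. The share in promoters went from 57.0% in the first bin to 7.0% in the last of these, while the share with p52 peaks in both TWEAK lists went from 2.0% to 35.0%. The weakest reproducible sites were thus low in GC content, outside promoters, and more often under p52 peaks. Tandem repeats, with at least 75% of bases equal 1 period further on, were found in 6.43% of the sites of all 4 lists and in 0 of the 19061 start site windows.

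Peaks were not confined to the assembled chromosomes. Unplaced and unlocalised contigs with the mitochondrial genome held 217 (4.96%) and 138 (6.68%) of the untreated peaks and 134 (3.75%) and 144 (4.58%) of the TWEAK peaks, a difference of the means of -1.66 percentage points (exact permutation test, p = 0.333). The conditions did not overlap. Peaks fell on 58 such sequences, 33 of them in every list. The contigs 22_KI270733v1_random, with 30, 29, 30 and 29 peaks, and Un_GL000220v1, with 33, 25, 28 and 28, each hold 2 exact copies of the 153-base 5.8S rRNA. On chromosome 21 the megabase from 8 to 9 Mb, which carries the 5.8S rRNA genes, held 83 and 73 untreated and 57 and 66 TWEAK peaks. The megabase from 17 to 18 Mb of chromosome 13, with no protein-coding gene, held 50 and 21 untreated and 12 and 8 TWEAK peaks. Peaks in such regions were low, with medians of 2.73 to 3.39 in these windows of chromosomes 13 and 21, although their q-values could be extreme. The mitochondrial control region had a peak in every list, with a fold enrichment of 1.72 and 2.12 without TWEAK and 1.88 and 2.39 with it.

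Among assembled chromosomes, 16 had overlapping shares of peaks in both conditions, 5 were higher with TWEAK and 3 were lower. With 2 libraries against 2, freely exchanged labels would leave a share of 0.333 of chromosomes without overlap, so these counts show no shift by condition. Chromosome 17 went from 5.66% and 5.50% to 6.84% and 6.86%, and chromosome 2 from 7.22% and 6.90% to 7.92% and 7.40%. Chromosome 13 went from 3.83% and 4.15% to 2.77% and 2.57%, and chromosome 1 from 12.9% and 13.2% to 12.2% and 12.3%. Adjacent megabases without protein-coding genes held part of these peaks. On chromosome 1 they held 36, 59 and 57 peaks in the first untreated library and 23, 30 and 39 in the second. The TWEAK libraries had 23, 29 and 27 peaks there, and 22, 23 and 26. On chromosome 13 the untreated libraries had 50 and 29, and 21 and 11, and the TWEAK libraries 12 and 9, and 8 and 8. Shares without such megabases were not computed, so neither fall is shown to be chromosome-wide. Chromosome X was the poorest in peaks per megabase in every list. It held 0.65% and 0.415% of the untreated and 0.582% and 0.467% of the TWEAK peaks on assembled chromosomes but 4.29% of the protein-coding genes, and 39 sites in all. Only 4 of these had a peak in every list. RNA Pol II lists of the same cells had 1.78% to 2.0% of their peaks on chromosome X. The p52 lists had 0.355% (2 of 563 peaks) and 0.545% (2 of 367 peaks) without TWEAK and 0.929% and 1.57% with it. All these lists were thus below the 4.29% of genes. The ETS1 shares were lower than those of every RNA Pol II list and both TWEAK p52 lists, and the untreated p52 shares rest on 2 peaks each.

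**Figure D4:**
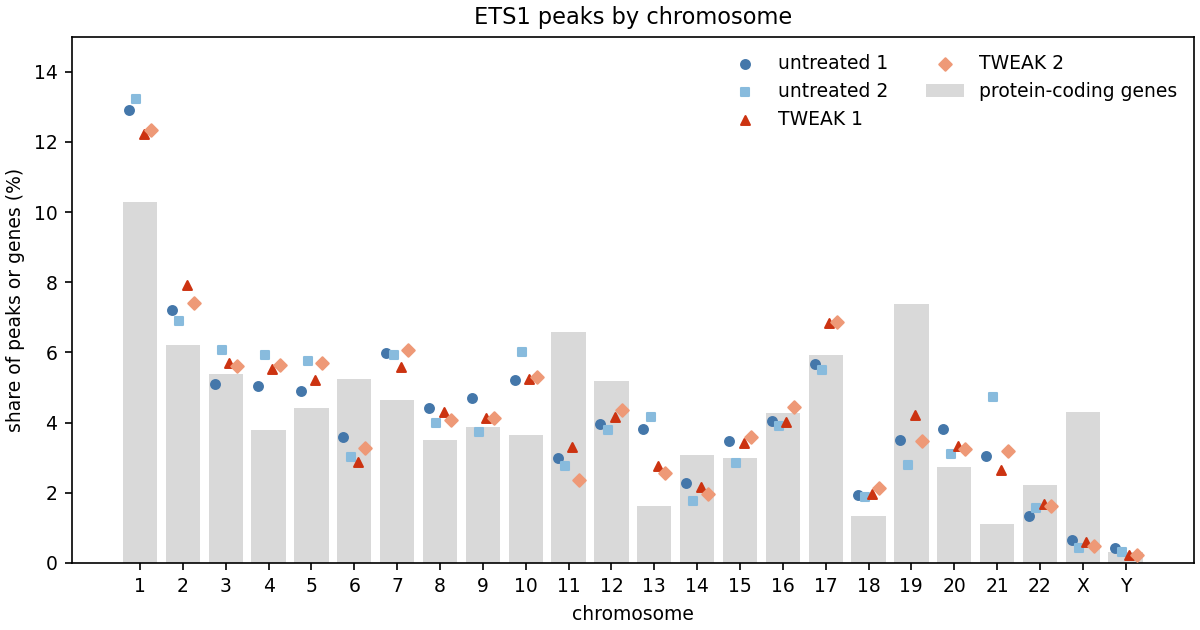
Share of the peaks on assembled chromosomes (y axis, percent) that fell on each chromosome (x axis), with 1 point for each of the 4 ETS1 libraries and, as grey bars, the share of protein-coding genes. Chromosome X lies near 0.5% of the peaks against 4.29% of the genes, chromosomes 13 and 21 lie above their genes, and both TWEAK points are above both untreated points on chromosome 17.

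A gene was given a promoter site where a summit lay between 1000 bp before and 100 bp after any of its start sites. Among 20046 protein-coding genes, 1720 and 766 had one in the untreated libraries and 1665 and 1424 in the TWEAK libraries. Both TWEAK lists had one at 906 genes, both untreated lists at 623, and all 4 lists at 466. Gene lists differed around this background. Of 89 genes of cytosolic ribosomal proteins, 15.7% and 7.87% had a promoter site without TWEAK and 23.6% and 24.7% with TWEAK, against 8.58% and 3.82%, and 8.31% and 7.10% of all protein-coding genes. In both TWEAK lists 17 ribosomal protein genes had one, in both untreated lists 6, and in all 4 lists 4. These 4 were *RPL32*, *RPL27A*, *RPS28* and *RPS7*.

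Ribosomal protein sites were mostly of middling height. *RPS7* had 5.22 and 5.42 against 7.36 and 6.11, *RPS28* had 9.17 and 5.92 against 5.74 and 4.70, and *RPS20* had no untreated peak and 5.48 and 5.68 with TWEAK. *RPL41* was the reverse, with 3.88 and 4.41 in untreated cells and no TWEAK peak. Of the 27 ribosomal protein genes with a site in any list and tested in RNA-seq, 0 were called by edgeR or DESeq2 and 0 had an unadjusted p under 0.05, beside 1.55% and 1.53% of all genes.

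Of 23 NF-κB pathway genes, 3 (13.0%) and 1 (4.35%) had a promoter site in the untreated libraries and 3 and 1 in the TWEAK libraries, beside 8.58% and 3.82%, and 8.31% and 7.1%, of all protein-coding genes. The one with a site in all 4 lists was *TRAF2*, an adaptor that restrains the kinase NIK, with 5.50 and 4.73 against 4.31 and 4.72. Its RNA was raised from 16.5, 16.7 and 16.4 CPM to 30.1, 30.9 and 32.4 CPM, a log2 change of 0.91 (SE 0.09, edgeR adjusted p = 0.000249). In all, 12 of the 23 genes were raised in RNA-seq, whether or not they had a site, beside 1.55% of all genes tested. Of 28 ETS family genes none had a site in all 4 lists, and *ELF2*, with 10.5 in the first untreated library and 10.1 and 8.0 with TWEAK, and *ETV4* had one in 3 lists. Of 20 unfolded protein response genes, 2 and 1 had a site without TWEAK and 5 (25%) and 4 (20%) with it, and the chaperone gene *CANX* had one in all 4, with 4.38 and 3.94 against 3.55 and 5.08. *XBP1*, a transcription factor whose mRNA is spliced by IRE1α, had a site only with TWEAK, at 4.31 and 4.05.

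**Figure D5:**
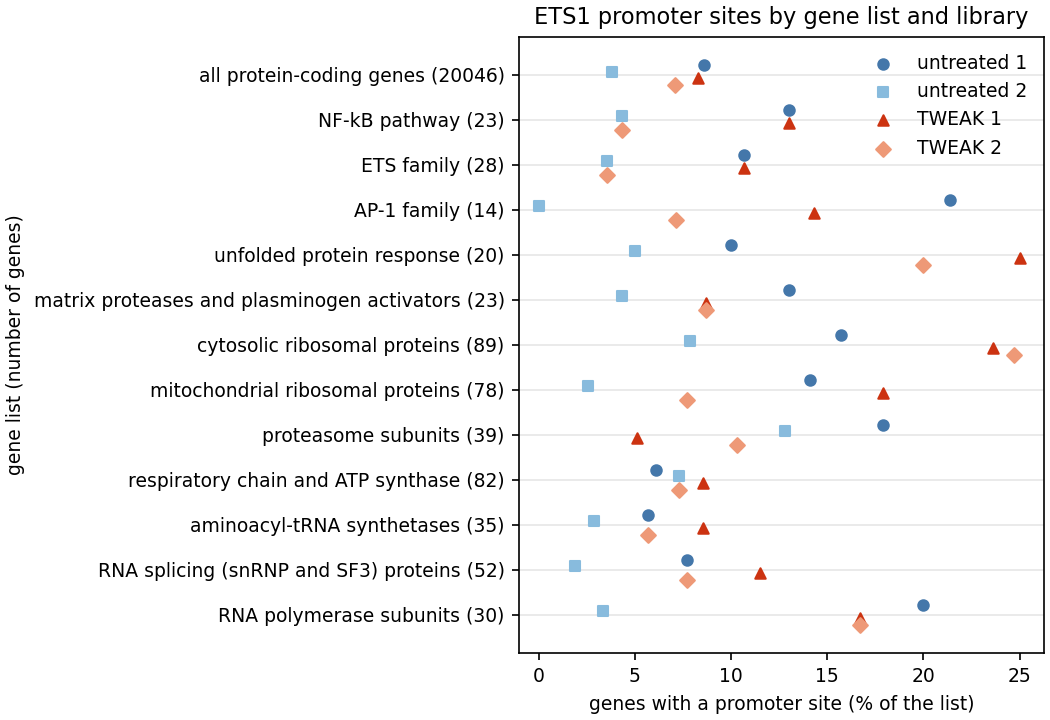
Percent of the genes of each list (x axis) with an ETS1 promoter site in each of the 4 libraries (points), with the number of genes in parentheses beside the list (y axis). For most lists the library with the fewest peaks, untreated 2, is lowest, and for the cytosolic ribosomal proteins both TWEAK points, at 23.6% and 24.7%, lie above both untreated points.

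The genes at the centre of the study had almost no ETS1 peaks. No peak of the 4 lists had *ETS1* or *ERN1*, which encodes IRE1α, as its nearest protein-coding gene. *NFKB2* had 1 weak peak, in the first TWEAK library only, with a fold enrichment of 2.71 at chr10:102399461-102399712, 34 bp upstream of a start site. *ETS1* RNA was 42.0, 41.3 and 45.1 CPM in untreated and 71.9, 73.1 and 87.6 CPM in TWEAK-treated cells, a log2 change of 0.86 (SE 0.15, edgeR adjusted p = 0.0076). *NFKB2* RNA was raised by 2.35 on the log2 scale (SE 0.18, edgeR adjusted p = 2.92e-05), and *ERN1*, which did not pass the test, had a log2 difference of 0.74 (SE 0.24, edgeR adjusted p = 0.136).

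Few genes with ETS1 promoter sites changed in RNA-seq. Of the 993 tested genes with a site in both TWEAK lists, 18 (1.81%) were raised and 28 (2.82%) were lowered, beside 1.55% and 1.53% of all 16879 genes and 1.57% and 1.39% of the 13959 genes without a site. Their median log2 change was 0.01, against 0.02 for all genes tested, and their median level without TWEAK was higher, at 23.3 against 15.7 CPM. Leaving out 1 RNA-seq library gave 10 to 20 raised and 5 to 18 lowered genes, and DESeq2 gave 32 and 47. At 165 genes with TWEAK-restricted promoter sites, 5 were raised and 0 lowered by edgeR. DESeq2 called 6 and 0 of them, beside 409 and 467 of all 16815 genes it tested. At an unadjusted p under 0.05 in edgeR, 15 of the 165 were higher and 5 lower. The share of all genes at that threshold was not computed, so these 2 counts have no baseline. The 5 raised genes were 3.03% of the 165, and at 47 genes with untreated-restricted promoter sites 2 (4.26%) were raised and 1 (2.13%) was lowered.

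The raised genes among the 10 largest changes were led by *TFPI2*, a serine protease inhibitor of the matrix, at 785, 708 and 766 CPM against 2440, 2340 and 2400 CPM. Its log2 change was 1.67 (SE 0.16, edgeR adjusted p = 0.000193), while its promoter site had 8.46 and 8.45 without TWEAK and 5.33 and 8.71 with it. *ALDH1A3*, a retinaldehyde dehydrogenase, was raised by 1.59 on the log2 scale (SE 0.14), with a site of 4.99 in the first untreated library and 7.10 and 6.84 with TWEAK. *ALOXE3*, of the lipoxygenase family, *NRG1*, a ligand of ErbB receptors, *EHD1*, an ATPase of endocytic recycling, and *RRAD*, a Ras-related GTPase, had a promoter peak in both TWEAK lists and in neither untreated list. *NRG1* had 5.79 and 4.99 with TWEAK, and its RNA went from 36.6, 40.7 and 45.3 CPM to 92.4, 104 and 148 CPM. *EHD1* had 7.09 and 5.73, and its RNA was raised by 1.25 on the log2 scale (SE 0.15).

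The lowered genes among these 10 had peaks in untreated cells as well. *ADAMTS14*, a procollagen peptidase, changed by -1.92 on the log2 scale (SE 0.47, edgeR adjusted p = 0.0439), with a promoter site of 6.05 and 5.53 against 8.12 and 6.17. *PRUNE2* changed by -1.21 (SE 0.17) with a site of 5.28 and 5.29 against 7.83 and 8.30, so its peak was higher and its RNA lower with TWEAK. *AK5*, an adenylate kinase, had 4.70 and 3.94 against 5.89 and 5.46, with RNA changed by -1.37 (SE 0.25). *MAN1C1*, a Golgi mannosidase, had 6.21 in the first untreated library and 6.27 and 5.66 with TWEAK, with RNA changed by -1.49 (SE 0.22).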

How the data were processed

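Per the labels and the study's methods, the authors used Trimmomatic for trimming of the ChIP reads and Bowtie2 for mapping to hg38, called peaks for each library with MACS2 against input, and removed blacklisted regions with bedtools, with versions not given in the sources used here. The deposited lists give each peak's fold enrichment, a ratio to input, and the authors' −log10 p- and q-values at the summit, and hold no read counts, so the depth is unknown and peaks were compared as listed. For RNA-seq the authors counted reads per gene with featureCounts after STAR, and the deposited table holds raw counts, with totals per library from 28.4 to 40.2 (in units of 1e6 counts) in 12 libraries. The strand setting was not given in the sources used here.

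Peaks sharing at least 1 bp were merged into sites, and start sites were taken from GENCODE 44. Values of whole libraries were compared by an exact permutation test, two-sided. Site strength was tested with limma 3.58.1 on log2 fold enrichment, and RNA with edgeR 4.0.16 (quasi-likelihood test, TMM, filterByExpr, 4 groups in 1 model that include *ETS1* and *NFKB2* KD cells) in R 4.3.3, both with Benjamini-Hochberg adjustment at 0.05 and both tested on simulated data. A total of 47 genes listed on both X and Y were summed. DESeq2 1.42.0 was an alternative. The labels do not say that replicates came from separate cultures, so p-values measure the spread between these samples. Named genes were the nearest genes of the 10 strongest sites of each condition, the 5 smallest p in each direction at sites of all 4 lists, the 10 largest RNA changes among genes with a promoter site in both TWEAK lists, members of the NF-κB, ETS and unfolded protein response lists with a site in all 4, and *ETS1*, *NFKB2* and *ERN1*, while other genes were chosen after their values were seen. The members, gene lists and motifs were chosen with earlier results of these data known.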

Additional observations from a re-analysis of the deposited data

How the results depend on the processing

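The ratio of median fold enrichment reversed to 0.923 with −log10 q in its place, and was 1.04 to 1.09 with 1 library left out. The share of peaks off the assembled chromosomes kept its direction in 6 of 6 alternatives (-2.51 to -0.797 percentage points with 1 library left out), as did the distance to start sites in 7 of 7 (0.683 to 0.763). With the same number of strongest peaks from each list the conditions overlapped in both the median fold enrichment and the share off the assembled chromosomes (exact permutation test, p = 1.0 for each). The 100 strongest sites shared 68 or 69 under each of the 3 alternatives. With 1 library left out, 0 to 1 sites changed in strength. The 1 site was *EEF1A1* without the first TWEAK library and the *HBB* region without the second, where the lone TWEAK library was assumed to vary like the untreated ones.

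Genes with a promoter site raised by TWEAK numbered 32 with DESeq2, 29 with a window of 2000 bp upstream to 500 bp downstream, 33 with a site in either TWEAK list and 10 to 20 with 1 library left out, the lowest without untreated replicate 1, untreated replicate 2 or TWEAK replicate 3. Lowered genes numbered 47 with DESeq2, 48 with all genes of at least 1 count, 49 with a site in either TWEAK list and 5 to 18 with 1 library left out, the lowest without TWEAK replicate 2. The causes were not tested. Over all genes, DESeq2 called 409 raised and 467 lowered genes, and 350 and 509 were called with all genes of at least 1 count.

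The replicate numbers were not taken as pairs. Same-numbered ChIP libraries deviated with a correlation of -0.00263, and RNA-seq libraries with 0.396, -0.178 and 0.492. With the replicate block, 0 sites changed in strength (77 at an unadjusted p under 0.05), and 26 raised and 32 lowered genes had a promoter site.

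Having 2 libraries a condition and lists without counts limits these results. A peak missing from a list does not show that ETS1 was absent, and no interval can be given for a single peak.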

Other observations

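Of 39 proteasome subunit genes, 7 (17.9%) and 5 (12.8%) had a promoter site in the untreated libraries and 2 (5.13%) and 4 (10.3%) in the TWEAK libraries. Of all protein-coding genes, 8.58% and 3.82%, and 8.31% and 7.1%, had one. Of 30 RNA polymerase subunit genes, 4 had a promoter site in both TWEAK lists and 0 in both untreated lists, beside 4.52% and 3.11% of all protein-coding genes, but the first untreated library had 6 such genes and the TWEAK libraries 5 each (16.7%). The 4 were *POLR2B*, *POLR2H*, *POLR3E* and *POLR3G*, and *POLR3E*, a subunit of RNA polymerase III, had 6.71 in the first untreated library and 6.23 and 6.66 with TWEAK.

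Some peaks of 1 list were as strong as shared ones. The strongest such peak was at *POU2F2*, a lymphoid POU-domain factor, with a fold enrichment of 11.7 in the second TWEAK library. In the untreated libraries the strongest were at *NEUROG2*, a neurogenic factor, and *MFHAS1*, both with 8.69 in the first library, and at *CCDC127*, with 7.94 in the second.

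The 20 peaks with the highest −log10 q had a median fold enrichment of 2.53 and 2.14 in the untreated and 5.22 and 2.47 in the TWEAK libraries, and their −log10 q was at least 106 and 73.6, and 82.3 and 108. The subtelomeric site next to *DDX11L16* on chromosome X, a 54-bp repeat with a match of 99.3% to itself, had 3.65 and 3.61 against 3.51 and 4.48.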
